A study of Mus musculus with 9 samples.

Results

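Genes that mark the urothelium, 10 in all, were followed in RNA-seq of embryonic mouse kidney: the uroplakins Upk1a, Upk1b, Upk2, Upk3a and Upk3b, the keratins Krt7 and Krt19, the ion pump regulator Fxyd3, the small proline-rich gene Sprr2f and the transcription factor gene Trp63. They were chosen by name with earlier results of these data known, so every difference between genotypes given for them is a description of these 9 libraries and is not independent support for anything. Each name matched 1 row, so the 10 genes are 10 of the 24138 loci in the table.

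RNA came from whole kidneys at E15.5, with 3 kidneys and 3 libraries of each of 3 genotypes, all on a C57Bl6/J background and all from 3 crosses of Ntn1fl/fl with Foxd1GC/+;Ntn1fl/+ mice. Which kidneys shared a cross is not given in the sources used here. Foxd1GC/+;Ntn1fl/fl kidneys (homozygous, MUT) carried 2 floxed copies of Ntn1, the gene for the secreted guidance ligand netrin 1, together with the Foxd1 GFP-Cre allele. Foxd1GC/+;Ntn1fl/+ kidneys (heterozygous, HET) carried the same Cre allele and 1 floxed copy, and Ntn1fl/fl kidneys (wild type, WT) carried 2 floxed copies and no Cre. The Cre is inserted in Foxd1, so MUT and HET kidneys have 1 disrupted Foxd1 allele, and Cre is driven by Foxd1, a gene of stromal progenitors, rather than by a urothelial gene. Values are FPKM, fragments per kilobase of transcript scaled to the size of the library, which can be compared between genes. The number of reads behind them is unknown, so error is judged from differences between libraries. The SE given for a tested gene is that of the limma fit. It combines the gene's own spread with that of other loci tested, so it can be wider or narrower than the gene's own libraries show. In whole kidney, fewer cells of a type and less RNA per cell cannot be told apart.

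The urothelium is the stratified epithelium that lines the renal pelvis, ureter and bladder. Its luminal cells cover their surface with rigid plaques of uroplakins, in which the tetraspanins Upk1a and Upk1b each leave the endoplasmic reticulum with a partner, Upk2 for Upk1a and Upk3a for Upk1b. Keratins 7 and 19 also occur in other simple epithelia of the kidney, including the collecting duct, and Upk3b also marks mesothelium. Sprr2f encodes a small proline-rich protein of the kind that transglutaminases crosslink beneath the surface of stratified epithelia, and Trp63 encodes p63, which marks basal cells.

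All 10 genes were detected in all 9 libraries, at levels that spanned a wide range. Krt7 was the most abundant, at 32.0 to 43.7 FPKM, and Trp63 the least, at 0.385 to 0.688 FPKM. Between them lay Krt19 at 18.0 to 33.8 FPKM, Upk3a at 8.98 to 20.3 FPKM, Sprr2f at 5.90 to 15.2 FPKM and Fxyd3 at 6.29 to 12.2 FPKM. The remaining uroplakins were lower, with medians over the 9 libraries of 2.32 FPKM for Upk1a, 2.20 FPKM for Upk1b, 1.55 FPKM for Upk2 and 1.53 FPKM for Upk3b. Only Upk3a, Krt7, Krt19, Fxyd3 and Sprr2f reached the mean of 5 FPKM in at least 1 genotype that was required for a test, and the other 5 genes are given by their values. The libraries of Upk3a, Sprr2f and Fxyd3 overlapped in level, as did those of Upk1a, Upk1b, Upk2 and Upk3b, so no order within those groups is given.

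**Figure D1:**
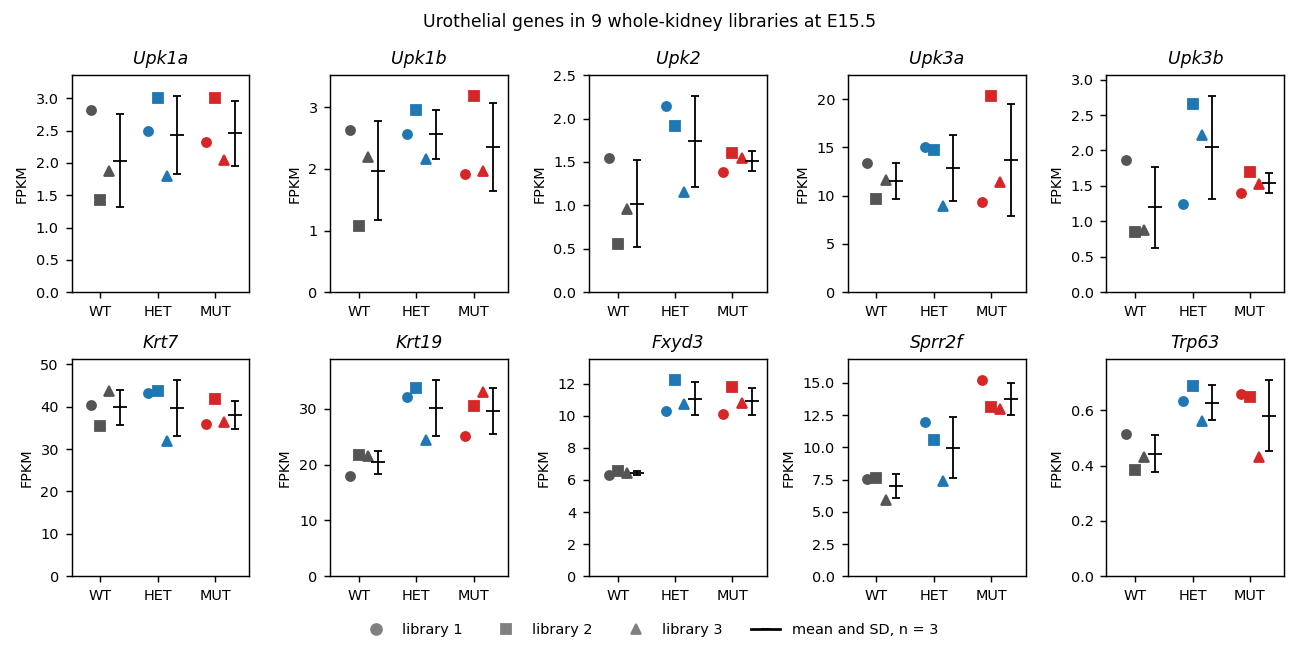
FPKM of the 10 urothelial genes in each whole-kidney library at E15.5 (y axes start at 0 and differ between panels), by genotype on the x axis, with the mean and SD of 3 libraries in black. Krt19 and Fxyd3 are higher in all 6 HET and MUT libraries than in the 3 WT libraries, Sprr2f is highest in MUT, and the uroplakins and Krt7 overlap between genotypes.

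Sprr2f lies on the + strand at chr3:92365187-92366442 (mm10) in a cluster of closely related genes, and its level rests on telling their reads apart. The neighbour Sprr2g (chr3:92373915-92375229) was the other Sprr2 gene with an appreciable level and was added after its values were seen. GENCODE M21 (GRCm38) classes Sprr2g as a polymorphic pseudogene, and its annotated coding transcript omits 1 base, at chr3:92374691. The 2 coding sequences are shown to make plain how much the genes share, each 5′ to 3′, with capitals at the aligned bases that differ (Sprr2f at chr3:92365896-92366126, Sprr2g at chr3:92374640-92374871, both + strand of GRCm38).
Sprr2f: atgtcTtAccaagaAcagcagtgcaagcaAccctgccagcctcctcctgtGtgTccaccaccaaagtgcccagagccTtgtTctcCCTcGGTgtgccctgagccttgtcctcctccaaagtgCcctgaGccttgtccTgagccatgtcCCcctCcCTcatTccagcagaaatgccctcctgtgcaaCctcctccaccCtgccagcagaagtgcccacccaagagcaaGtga
Sprr2g: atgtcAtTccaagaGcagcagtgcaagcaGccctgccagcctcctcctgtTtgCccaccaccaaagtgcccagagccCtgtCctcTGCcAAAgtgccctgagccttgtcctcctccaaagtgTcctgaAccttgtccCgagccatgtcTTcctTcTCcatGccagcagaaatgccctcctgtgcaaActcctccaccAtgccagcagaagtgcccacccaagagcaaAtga
The 231-base coding sequences were 88.7% identical, with 205 identical and 26 mismatched bases and no gap. Their longest identical run was 30 bases, and none of the 535 windows of 75 bases in the Sprr2f transcript was present in the longest coding transcript of any of 11 other Sprr2 genes. The longest run shared with Sprr2f was 53 bases, in Sprr2e. The 10 other Sprr2 rows of the table lay between 0 and 0.163 FPKM in every library. The read length is not given in the sources used here, so the Sprr2f and Sprr2g levels remain uncertain to the extent that short reads were split between them.

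The start of Sprr2f is shown because it is the member with the clearest difference between MUT and HET, and that of Sprr1a, a related gene on the same chromosome, because its difference between MUT and HET was of the same size. The 250 bases before each annotated start are given 5′ to 3′ on the gene's strand (RefSeq, GRCm38.p6: Sprr2f at chr3:92364937-92365186, + strand, Sprr1a at chr3:92485882-92486131, − strand). Capitals mark matches on either strand to TGANTCA, the letters bound by AP-1 factors, and to TATAAA, the TATA box, which do not overlap each other.
Sprr2f upstream: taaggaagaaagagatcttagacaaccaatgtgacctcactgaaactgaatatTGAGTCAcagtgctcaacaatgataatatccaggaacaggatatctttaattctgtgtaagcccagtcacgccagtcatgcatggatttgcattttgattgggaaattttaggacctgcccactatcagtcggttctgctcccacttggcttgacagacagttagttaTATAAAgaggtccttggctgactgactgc
Sprr1a upstream: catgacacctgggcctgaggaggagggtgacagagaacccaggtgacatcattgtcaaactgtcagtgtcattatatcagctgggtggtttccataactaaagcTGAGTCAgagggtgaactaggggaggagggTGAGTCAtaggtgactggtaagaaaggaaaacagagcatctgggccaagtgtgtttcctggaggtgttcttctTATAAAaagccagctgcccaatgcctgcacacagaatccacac
The Sprr2f window held 1 TGANTCA, which begins 197 bases before the start, and 1 TATAAA, 29 bases before it. In the Sprr1a window TGANTCA began 146 and 116 bases before the start and TATAAA 43 bases before it. Upstream windows were present for 6 of the 10 urothelial genes (Upk1a, Upk3a, Upk3b, Krt7, Fxyd3 and Sprr2f), and of these only the Sprr2f window held either string. No window was available for Upk1b, Upk2, Krt19 or Trp63, nor for Sprr2g, so the strings cannot be set against the differences of those genes. Among all 32841 windows of the same length, 6.75% held TGANTCA, 12.4% held TATAAA and 1.21% held both. A match is a string of letters and is not evidence that a factor binds there.

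MUT kidneys were compared with HET kidneys, the study's own comparison, which holds the Cre allele and the disrupted Foxd1 allele constant. Sprr2f was the one urothelial gene whose libraries did not overlap. Its FPKM were 15.2, 13.1 and 13.0 in MUT-1, MUT-2 and MUT-3, against 12.0, 10.6 and 7.37 in HET-1, HET-2 and HET-3. Every MUT library was above every HET library, and the same-numbered ratios ran from 1.24 to 1.77. The difference in log2(FPKM + 1) was 0.45 ± 0.14 (SE, n = 3 per genotype). It did not pass limma's test over 10081 loci (adjusted p = 0.933), in which no locus was called (0.0%) and 494 had an unadjusted p under 0.05. Non-overlap in this direction was found in 1 of 10 urothelial genes and in 4.38% of the 16631 loci above 0 in all libraries, a share of 7.27% without HET-2 and 7.29% without MUT-2. The study's thresholds of fold and p were applied here as a ratio of at least 1.2 with a p of 0.05 or less in a one-sided test of the same-numbered differences. Sprr2f met them in this form, as did 119 of 10081 loci (1.18%). The membership of Sprr2f may rest on that same contrast, so nothing is read from this count.

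The libraries of the other tested genes overlapped between MUT and HET. Krt7 measured 35.8, 41.9 and 36.3 FPKM in the MUT libraries and 43.1, 43.7 and 32.0 FPKM in the HET libraries, a difference of -0.05 ± 0.14 (SE) in log2(FPKM + 1). Krt19 differed by -0.02 ± 0.16 and Fxyd3 by -0.02 ± 0.13 on the same scale. Upk3a was 9.39, 20.3 and 11.4 FPKM in MUT and 15.0, 14.7 and 8.98 FPKM in HET, with the highest value of the 6 in MUT-2 and the lowest in HET-3. Its difference was 0.04 ± 0.18, and without MUT-2, in a fit with no block, it was -0.26. The adjusted p of the 5 tested genes lay between 0.933 and 0.992 (limma), and their median difference was -0.02, equal to that of all loci tested.

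Other Sprr genes had mean differences of the same sign in this comparison, and none passed the test. Sprr2g was 11.4, 6.08 and 11.3 FPKM in MUT and 5.71, 6.65 and 5.05 FPKM in HET. MUT-2 lay below HET-2, and when either one of those 2 libraries was left out the groups no longer overlapped. Its difference in log2(FPKM + 1) was 0.60 ± 0.20 (SE, limma adjusted p = 0.933). Sprr1a was 16.6, 18.8 and 13.1 FPKM in MUT and 13.9, 15.1 and 7.11 FPKM in HET, with MUT above HET in each of the 3 same-numbered pairs although the groups overlapped. Its difference was 0.45 ± 0.14 (limma adjusted p = 0.933), the same to 2 decimals as that of Sprr2f. The SE of Sprr1a leans more on treating same-numbered libraries as pairs. Its unadjusted p was 0.00678 with replicate number as a block and 0.0747 without it, against 0.00587 and 0.0148 for Sprr2f (limma). MUT-2 was the highest of the 3 MUT libraries for Sprr1a and the lowest for Sprr2g, so the 3 genes did not share 1 order of libraries.

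**Figure D2:**
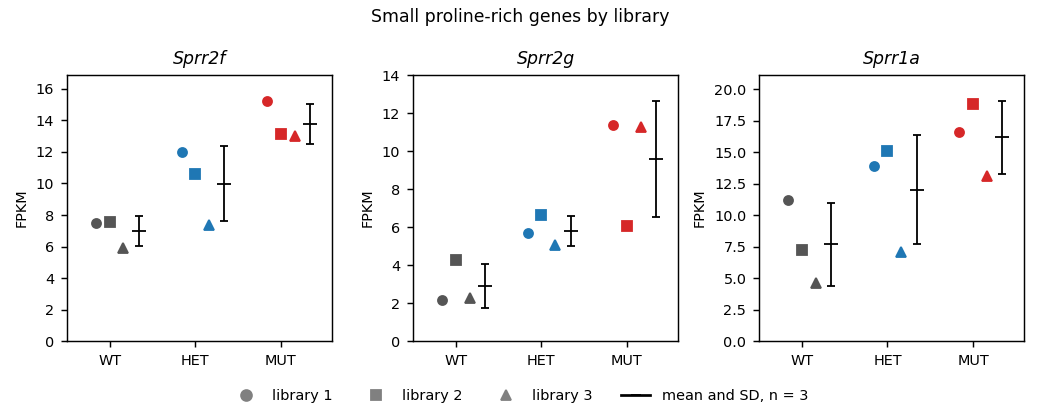
FPKM of Sprr2f, Sprr2g and Sprr1a in each library by genotype, with the mean and SD of 3 libraries in black (y axes start at 0 and differ). Sprr2f lies at 5.90 to 7.59 FPKM in WT, with means of 9.99 FPKM in HET and 13.8 FPKM in MUT, and MUT-2 (square) is the lowest MUT library for Sprr2g but the highest for Sprr1a.

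MUT kidneys were next set against WT kidneys, which differ from them by the Cre allele and with it by the Foxd1 allele. Deletion of Ntn1, the Cre and the disrupted Foxd1 allele cannot be told apart in this comparison. Of the 10 urothelial genes, 3 (Sprr2f, Fxyd3 and Krt19) were higher in every MUT library than in any WT library. Non-overlap in this direction was found in 2.27% of the loci above 0 in all libraries, and the same 3 genes showed it without MUT-2 or without WT-2, where that share was 4.89% and 4.94%. Sprr2f was 7.51, 7.59 and 5.90 FPKM in WT-1, WT-2 and WT-3, and the ratio of mean MUT to mean WT was 1.97. Fxyd3 was 6.29, 6.56 and 6.41 FPKM in WT and 10.1, 11.8 and 10.8 FPKM in MUT, a ratio of 1.70. Krt19 was 18.0, 21.7 and 21.5 FPKM in WT and 25.1, 30.6 and 33.1 FPKM in MUT, a ratio of 1.45. On the log2(FPKM + 1) scale the differences were 0.89 ± 0.10 for Sprr2f, 0.68 ± 0.10 for Fxyd3 and 0.51 ± 0.09 for Krt19 (SE, n = 3 per genotype).

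No urothelial gene passed limma's test of MUT against WT. The adjusted p of the 5 tested genes lay between 0.949 and 0.995, no locus of 10096 was called (0.0%), and 201 had an unadjusted p under 0.05. With replicate 2 of both genotypes left out, all 3 genes passed, at adjusted p of 4.19e-05 for Sprr2f, 0.0061 for Fxyd3 and 0.00897 for Krt19 (limma). That fit rests on 2 libraries per genotype and 1 residual degree of freedom. The tested genes had a median difference of 0.51, against 0.00 for all loci tested. Upk3a differed by 0.17 ± 0.26 and Krt7 by -0.07 ± 0.12.

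HET kidneys were compared with WT kidneys, from which they differ by the Cre allele, with it by the Foxd1 allele, and by 1 unfloxed Ntn1 allele. Deletion of the 1 floxed Ntn1 copy, the Cre and the disrupted Foxd1 allele cannot be told apart in this comparison. The WT libraries are the same as in the comparison with MUT, so the 2 sets of differences are not independent and are given side by side. Fxyd3 was 10.3, 12.2 and 10.7 FPKM in HET, all above the WT maximum, with a difference in log2(FPKM + 1) of 0.70 ± 0.11, against 0.68 ± 0.10 in MUT. Krt19 was 32.1, 33.8 and 24.4 FPKM in HET, with a difference of 0.53 ± 0.13, against 0.51 ± 0.09 in MUT. Sprr2f differed by 0.44 ± 0.12, against 0.89 ± 0.10 in MUT, and HET-3, at 7.37 FPKM, lay within the WT range. Trp63, under the minimum for a test, was 0.633, 0.688 and 0.561 FPKM in HET and 0.516, 0.385 and 0.430 FPKM in WT, without overlap.

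Thus 3 of the 10 urothelial genes (Krt19, Fxyd3 and Trp63) were higher in every HET than in any WT library, as were 3.33% of the loci above 0 in all libraries. The same 3 genes were counted when HET-2 or WT-2 was left out, where the share of all such loci was 4.38% and 9.44%. In limma's test the adjusted p ran from 0.578 for Fxyd3 to 0.997 for Krt7, no locus of 10105 was called (0.0%), and 233 had an unadjusted p under 0.05. Without replicate 3 of both genotypes Fxyd3 had an adjusted p of 0.0054 and Krt19 of 0.00223 (limma), again with 1 residual degree of freedom. Upk3a differed by 0.13 ± 0.16 and Krt7 by -0.02 ± 0.15. The median difference of the tested genes was 0.44, against 0.01 for all loci tested.

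**Figure D3:**
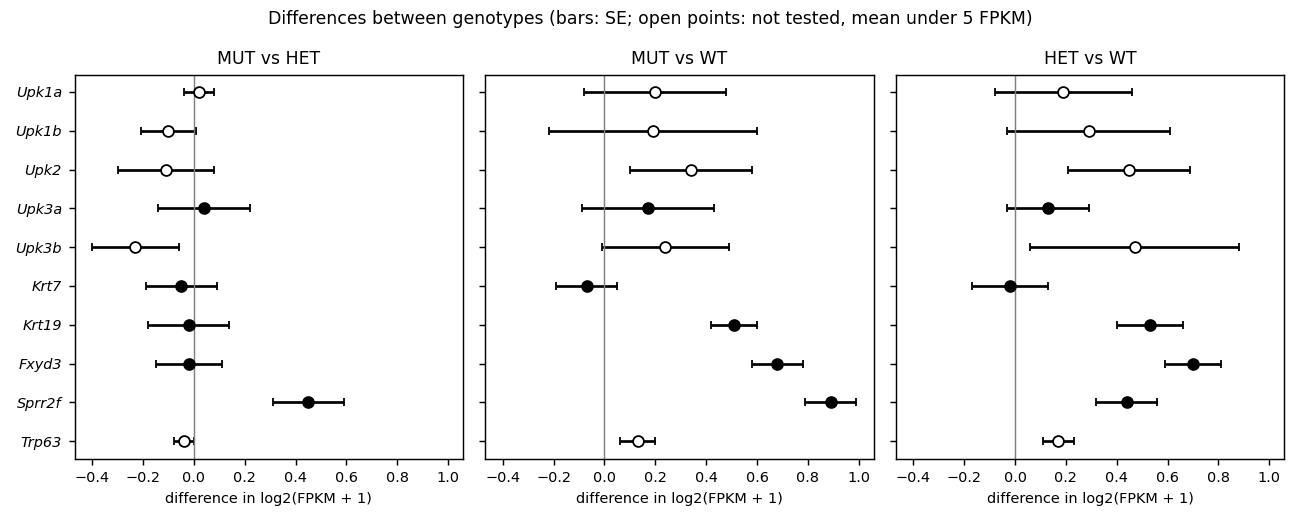
Difference in log2(FPKM + 1) of the 10 genes (y axis) in the 3 comparisons, first genotype minus second (x axis), with bars of 1 SE. Filled points were tested and carry limma's SE. Open points were not tested and carry the SE of the 3 same-numbered differences, so bars of filled and open points are not alike. Sprr2f is set apart from 0 in MUT against HET, at 0.45, while Fxyd3 and Krt19 are set apart only in the comparisons with WT, at 0.51 to 0.70.

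Krt19 and Fxyd3 were the 2 of the 10 genes that lay above all 3 WT libraries in all 6 libraries with the Cre allele, a pattern shown by 108 of 16631 loci (0.649%). Outside the 10 genes it was shown, among others, by Sprr2g and by the tight junction gene Cldn4, which was 29.0 to 34.8 FPKM in WT and 36.9 to 49.6 FPKM in the other 6 libraries. Tbx18, from the list of ureter mesenchyme, and Msln, from the mesothelial list, showed it too. Tbx18 was 2.51 to 3.48 FPKM in WT and 3.54 to 5.0 FPKM in the other 6 libraries. Msln was 0.856 to 1.16 FPKM in WT and 1.21 to 1.47 FPKM in the other 6. The rest of these 2 lists did not show the pattern. Tbx18 was the 1 of 11 and Msln the 1 of 4 genes found that were higher in MUT than in WT without overlap. Mesothelial Gpm6a went the other way in HET, at 7.06 to 7.72 FPKM against 8.02 to 11.7 FPKM in WT, and Lrrn4 and Bnc1 overlapped. Krt19 and Fxyd3 were also each other's nearest match among the 10 genes over the 9 libraries (Pearson r = 0.877, Spearman rho = 0.883), over points that include the gap between WT and the other genotypes. Fxyd3 was tight within genotypes, with SDs of 0.136, 0.979 and 0.859 FPKM in WT, HET and MUT around means of 6.42, 11.1 and 10.9 FPKM. The interval the table gives for it, chr7:31059935-31076697, is shared with the row of Lgi4, a gene on the other strand, which measured 0.267 to 0.406 FPKM. Krt7 did not follow Krt19. The ratio of Krt7 to Krt19 was 1.64 to 2.25 in WT, 1.29 to 1.34 in HET and 1.10 to 1.43 in MUT, so that the WT libraries lay above the other 6.

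**Figure D4:**
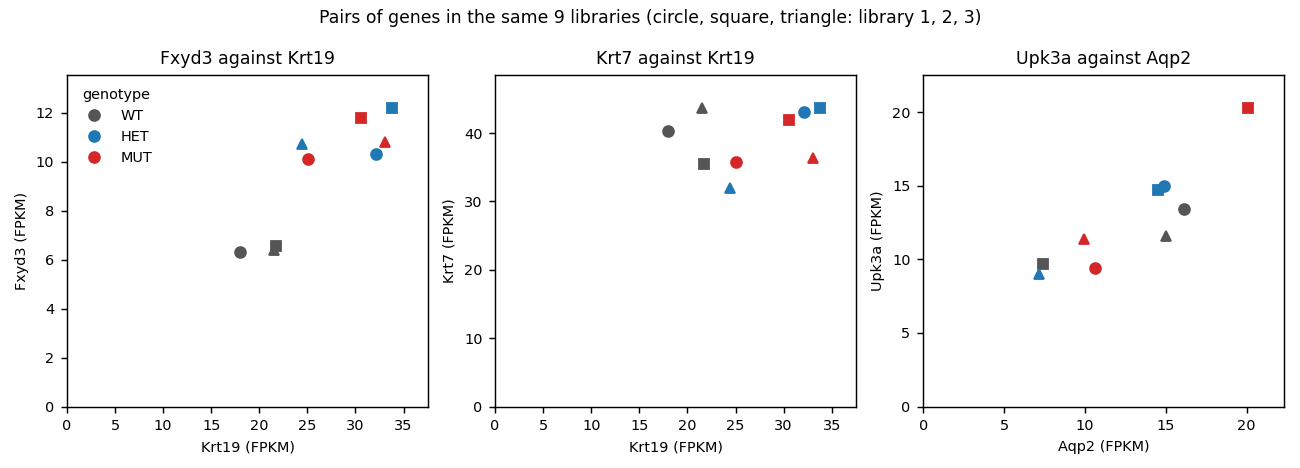
FPKM of 2 genes plotted against each other in each of the 9 libraries, coloured by genotype, with axes from 0. Fxyd3 against Krt19 places the 3 WT libraries apart from the other 6, Krt7 does not follow Krt19 across genotypes, and Upk3a is higher in the libraries where Aqp2 is higher, with no separation by genotype.

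With all libraries kept, those of every uroplakin overlapped between genotypes in all 3 comparisons. Leaving out a single library ended the overlap in several cases, of which examples follow. Without MUT-2, both remaining MUT libraries of Upk1b lay below the HET libraries. Without WT-1, both remaining WT libraries of Upk2 and of Upk3b lay below all HET and MUT libraries. The share of all loci that separate without WT-1 was not computed. Upk1a was 2.82, 1.42 and 1.87 FPKM in WT, 2.49, 3.00 and 1.80 FPKM in HET and 2.32, 3.01 and 2.04 FPKM in MUT. Upk1b was 2.64, 1.08 and 2.20 FPKM in WT, 2.56, 2.95 and 2.17 FPKM in HET and 1.92, 3.18 and 1.97 FPKM in MUT. Both tetraspanins were lowest in WT-2 and highest in MUT-2. Upk2 was 1.55, 0.551 and 0.956 FPKM in WT, 2.14, 1.92 and 1.15 FPKM in HET and 1.38, 1.60 and 1.55 FPKM in MUT, again lowest in WT-2. Upk3a in WT was 13.4, 9.65 and 11.6 FPKM. Upk3b was 1.86, 0.849 and 0.879 FPKM in WT, 1.25, 2.66 and 2.22 FPKM in HET and 1.40, 1.69 and 1.53 FPKM in MUT, and its highest libraries, HET-2 and HET-3, were not those of Upk3a.

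The plaque genes were also compared with each other within a library. The ratio of Upk1a to Upk1b was 0.83 to 1.31 in the 9 libraries, while the highest level was 2.12 times the lowest for Upk1a and 2.93 times the lowest for Upk1b. The ratio of Upk1a to its partner Upk2 was 1.17 to 2.57, and that of Upk3a to its partner Upk1b 4.13 to 8.90. The highest level was 3.87 times the lowest for Upk2 and 2.26 times the lowest for Upk3a. Each partner ratio thus spread about as widely as the less variable gene of its pair (Upk1a or Upk3a) and less widely than the other (Upk2 or Upk1b). Upk1b and Upk1a were each other's nearest match (r = 0.892, rho = 0.85), Upk1a was the nearest of the 10 genes to Upk2 (r = 0.84) and to Upk3a (r = 0.785), and Upk3b matched Upk1b less closely (r = 0.621). These are correlations of log2(FPKM + 1) over 9 libraries that share their scaling and genotype differences, and are given as descriptions.

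Genes outside the 10 were ranked by their correlation with the mean standardized level of Upk1a, Upk1b, Upk2 and Upk3a over the same 9 libraries. Of 9973 loci with a mean of at least 5 FPKM, the nearest were Sfn (r = 0.902), B4galt7 (r = 0.893), Rplp2 (r = 0.88), Gtpbp3 (r = 0.88) and Trim47 (r = 0.869). Sfn, which encodes the epithelial 14-3-3 sigma protein, was 4.48 to 6.98 FPKM. The water channel gene Aqp2, a principal cell marker of the collecting duct that was fixed as a marker of ureteric epithelium, reached r = 0.844. Aqp2 was 16.1, 7.40 and 15.0 FPKM in WT, 14.9, 14.5 and 7.17 FPKM in HET and 10.6, 20.1 and 9.95 FPKM in MUT. MUT-2 was highest and WT-2 and HET-3 were low for both Aqp2 and Upk3a, and the ratio of Upk3a to Aqp2 stayed between 0.777 and 1.30. The part of the collecting duct in the uroplakin levels was not tested.

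Other genes of the urothelium were taken from 2 lists. Of 9 regulators of urothelial or surface epithelial fate, 4 reached the minimum and none passed limma's test in any comparison. Gata3 was the highest, at 17.2 to 25.7 FPKM, followed by Ehf at 9.44 to 13.8 FPKM and Elf3 at 7.35 to 14.7 FPKM. Elf3, an epithelial Ets factor gene, was 10.6 to 13.6 FPKM in MUT and 7.35 to 10.6 FPKM in WT, without overlap before rounding. Of all 9, 3 were higher in MUT than in WT without overlap, beside 2.27% of the loci above 0 in all libraries. Between MUT and HET, 3 of the 4 tested regulators had positive differences, against 45.9% of all loci tested. Of all 9, 2 were higher in MUT without overlap, both under the minimum for a test, beside the 4.38% of loci given above. These 2, named after their values were seen, were Klf5, at 5.65, 4.66 and 4.28 FPKM in MUT against 2.74, 3.30 and 3.55 FPKM in HET, and Foxa1, at 4.21, 4.98 and 3.35 FPKM against 3.29, 3.22 and 2.94 FPKM. In WT Klf5 was 2.31 to 3.44 FPKM and Foxa1 2.23 to 2.95 FPKM, so these 2 and Elf3 were the 3 counted against WT.

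Of 20 further urothelial genes, 9 were tested and none passed. The highest were Krt8, at 63.4 to 87.2 FPKM, Krt18, at 55.1 to 89.9 FPKM, and Cldn7, at 47.2 to 78.7 FPKM, all of which are general epithelial genes. In MUT against WT, 3 of the 20 were higher without overlap: Cldn4 at a ratio of means of 1.41, Cldn7 at 1.36 and Sprr1a at 2.10. The other direction was shown by 1 of the 20, Krt17, which was under the minimum for a test. Of the loci above 0 in all libraries, 2.27% were higher and 2.95% lower without overlap. Among keratins of basal and stratified epithelium, the highest value was 0.209 FPKM for Krt5, 0.209 FPKM for Krt14, 0.0444 FPKM for Krt13 and 0.092 FPKM for Krt17. Krt15 was higher, at 0.406 to 1.01 FPKM. Psca, a surface gene of luminal urothelium, was 0.0244 to 0.389 FPKM. Krt20, a keratin of mature umbrella cells, was 0.205 to 0.967 FPKM.

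Markers of other tissues and the targeted gene were read in the same libraries. Ntn1 was 26.1, 28.9 and 17.8 FPKM in WT, 12.3, 12.0 and 16.5 FPKM in HET and 10.8, 16.5 and 11.0 FPKM in MUT, so that the WT libraries lay above the rest and MUT and HET overlapped. The 7 liver genes summed to 729 FPKM in HET-2 and to 28.2 to 53.9 FPKM in the other libraries. HET-2 was the highest of the 3 HET libraries for 7 of the 10 urothelial genes, and without it, in a fit with no block, the difference of HET from WT was 0.64 for Fxyd3 and 0.44 for Krt19, and that of MUT from HET was 0.50 for Sprr2f. The 4 mesothelial genes with a row (Msln, Lrrn4, Gpm6a and Bnc1) summed to 8.57 to 13.6 FPKM, 5 adrenal and gonadal genes to 0.726 to 1.40 FPKM and 5 skin genes to 3.37 to 5.68 FPKM, with the skin cadherin gene Dsg3 at 0 throughout. The 11 ureteric epithelium genes, led by Epcam, Calb1 and Hoxb7, summed to 353 to 374 FPKM in WT, 357 to 401 FPKM in HET and 376 to 401 FPKM in MUT, and 0 of 11 passed limma's test in each comparison. The 11 genes of ureter mesenchyme and smooth muscle, led by Acta2, Tagln and Des, summed to 145 to 176 FPKM in WT, 185 to 235 FPKM in HET and 145 to 180 FPKM in MUT. Of the 8 of these tested between HET and WT all had positive differences, with a median of 0.34, and between MUT and HET all 8 had negative differences, with a median of -0.32, and none passed limma's test. The amount of ureter or pelvis left on each kidney is not given in the sources used here, and its part in the urothelial differences was not tested.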

How the data were processed

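Whole E15.5 kidneys of 3 genotypes were sequenced in 9 libraries from a stranded mRNA kit. The deposited FPKM were made by the authors with Cuffdiff from STAR alignments and Cufflinks/cuffmerge transcript models (versions not given in the sources used here). The build is mm10 according to the submitters' processing notes. The table also holds the authors' mean FPKM per genotype, which were not used. The files hold no read numbers, so counting error could not be computed.

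Rows were matched by gene symbol. limma 3.58.1 (R 4.3.3) was fitted to log2(FPKM + 1) of the loci whose mean reached 5 FPKM in 1 or both genotypes (trended eBayes, two-sided, Benjamini-Hochberg, threshold 0.05), with only the genotypes compared in each fit and replicate number as a block, because the study's tabulated P for Sprr2f matches a one-sided test of same-numbered differences, although the study does not name the test's form. Fold changes on this scale understate those of low genes. Exact permutation tests of 3 against 3 libraries cannot go below 0.1 and were not used. The steps were tested on simulated data. The 10 genes and the marker lists were chosen with earlier results of these data known. All 10 genes were named, and from other lists the 3 with the highest mean FPKM, plus any that passed the test, and the 5 loci most like the uroplakins. Genes outside this rule are Sprr2g, Sprr1a, Cldn4, Aqp2, Klf5, Foxa1, Tbx18, Krt5, Krt13, Krt14, Krt15, Krt17, Krt20, Psca and the mesothelial and skin genes, named after their values were seen. Muc16 of the mesothelial list had no row. Alternatives were other pseudocounts and minimums, median-ratio rescaling, 1 fit of all libraries, no block, no trend and left-out replicates. Transcripts were aligned pairwise with Biopython, and plots were made with matplotlib 3.10.9.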

Additional observations from a re-analysis of the deposited data

How the results depend on the processing

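No locus was called in any comparison under pseudocounts of 0.1 or 3, a minimum of 1 FPKM or none, median-ratio rescaling, 1 fit of all 9 libraries, no trend or no replicate block. Leaving out a replicate number, which leaves 1 residual degree of freedom, called 30 to 148 loci in MUT against HET, 1 to 168 in MUT against WT and 1 to 125 in HET against WT. Without MUT-2 and without the block (chosen after seeing the data), 1 locus was called in MUT against HET and 1 in MUT against WT. Correlations of deviations of libraries numbered 1, 2 and 3 were -0.32, 0.0569 and -0.137 between MUT and HET, 0.557, -0.261 and -0.0354 between MUT and WT, and -0.19, -0.0541 and 0.173 between HET and WT. They were not all above 0.1 in any comparison, so they do not show that same-numbered libraries are paired. The main fit nevertheless kept the replicate number as a block, so its SEs and p treat same-numbered libraries as pairs. For Fxyd3 in HET against WT the adjusted p was 0.578 with the block and 0.978 without it (limma). For Sprr2f in MUT against HET the unadjusted p was 0.00587 with it and 0.0148 without it (limma). Without the replicate block the count of loci called stayed at 0 in each comparison, and loci with an unadjusted p under 0.05 went from 494 to 636, from 201 to 65 and from 233 to 108.

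Of 370 values of the 10 genes under alternatives, 346 kept their direction and their side of the threshold or, for genes not tested, moved by less than the spread between libraries. Values of tested genes changed sign in 14 cases, none past the threshold, and passed the threshold in 5, and 5 values of genes not tested (Upk1a and Trp63) moved by more than the spread. Among genes not tested, ranges also crossed 0 for Upk1a (-0.10 to 0.13) and Upk2 (-0.28 to 0.04) in MUT against HET, and for Upk1a (-0.06 to 0.41 and -0.08 to 0.35) and Upk1b (-0.21 to 0.45 and -0.02 to 0.45) in MUT and HET against WT. In MUT against HET, Upk3a ranged from -0.16 to 0.37 with a replicate number left out (-0.09 without replicate 3) and was -0.26 without MUT-2, and Krt7 was 0.06 without replicate 1 and 0.03 without HET-2. Krt19 ranged from -0.24 to 0.14 with a replicate number left out (0.04 without replicate 2) and was 0.07 without HET-2, and Fxyd3 was 0.04 without HET-2. In MUT against WT, Upk3a ranged from -0.25 (without replicate 2) to 0.48 and was -0.13 without MUT-2, and Krt7 ranged from -0.21 to 0.03 (without replicate 3). In HET against WT, Upk3a ranged from -0.09 (without replicate 2) to 0.36 and Krt7 from -0.17 to 0.19 (without replicate 3). The cause was not tested. Over all alternatives Sprr2f stayed at 0.30 to 0.53 in MUT against HET and 0.75 to 0.98 in MUT against WT, Fxyd3 at 0.56 to 0.75 in MUT and 0.58 to 0.78 in HET against WT, and Krt19 at 0.47 to 0.54 and 0.39 to 0.71. Those passing the threshold were Sprr2f, Fxyd3 and Krt19 in MUT against WT without replicate 2, at 0.98, 0.64 and 0.53, and Krt19 and Fxyd3 in HET against WT without replicate 3, at 0.71 and 0.72.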
